A study of Homo sapiens with 4 samples.

Results

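The genes described here encode collagens, the triple-helical proteins of the extracellular matrix, and lysyl oxidases, the copper enzymes that crosslink collagen and elastin. They were chosen by symbol alone, as every gene of the deposited table named COL, a number, A and a number, or named LOX or LOXL1 to LOXL4. This gave 48 of 35211 genes, 43 collagens and 5 lysyl oxidases. COL9A1 was not analysed here.

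RNA was measured in 4 libraries from 2 established human prostate cancer cell lines, PC3 and DU145. The groups, with 1 library each, were PC3 with a plasmid for overexpression of circ0003553, PC3 with a negative control plasmid, DU145 with the circ0003553 plasmid and DU145 with the negative control plasmid. circ0003553 is a circular RNA, and RCAN3 is the gene in the titles of all 4 samples. The labels give no time after transfection, no number of cultures and no clone, and all 4 groups received a plasmid. Total RNA was depleted of ribosomal RNA, so the counts are not limited to polyadenylated RNA.

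Collagens are assembled from chains that wind into a triple helix of repeated glycine-led triplets. Fibrillar collagens form banded fibrils, type IV forms the sheet of basement membranes, type VI forms beaded microfibrils, and FACIT collagens sit on the surface of fibrils. Epithelial cells are known mainly for basement membrane and transmembrane collagens, whereas fibroblasts make most of the fibrillar kind. Lysyl oxidases convert lysines of secreted chains to aldehydes, from which crosslinks form, and their expression in tumours has been linked to matrix stiffening.

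Library totals ran from 33438509 to 39488890 counts. RCAN3 had 3798 counts with circ0003553 plasmid and 1212 with control plasmid in PC3, and 816 with circ0003553 plasmid and 639 with control plasmid in DU145. Gene-level counts do not separate its circular from its linear RNA. All 7 epithelial markers examined (KRT8, KRT18, KRT19, EPCAM, CDH1, ESRP1 and CDH3) were above 3 counts in every library. Their summed level was 340 and 354 RPKM in PC3 and 1210 and 1040 RPKM in DU145, with circ0003553 and control plasmid. ESRP1 alone ran against this sum, at 3.11 RPKM in each PC3 library and 0.85 and 0.825 RPKM in DU145. The 10 markers of fibroblasts and smooth muscle summed to 1.61 and 1.74 RPKM in PC3 and 0.859 and 0.746 RPKM in DU145. Within that list DCN, LUM, FAP, THY1, POSTN and PDGFRB had at most 10 counts in any library, and PDGFRA had 238 counts in each PC3 library and 0 in each DU145 library. The others were higher in some or all libraries. MYH11 had 117 and 107 counts in PC3 and 103 and 105 in DU145. ACTA2 had 50 and 29 in PC3 and 69 and 63 in DU145, and DES had 26 and 34 in PC3 and 0 in each DU145 library. Of the 4 endothelial markers KDR had 1624 and 1564 counts in PC3 and 2 and 0 in DU145, PECAM1 had 595 and 585 in PC3 and 14 and 10 in DU145, and VWF and CDH5 had at most 14 in any library. Of the leukocyte markers PTPRC had at most 2 counts. The part of these markers in the differences between the lines was not tested.

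The lines were compared first, as the setting in which the members' levels lie. PC3 libraries held much more collagen RNA than DU145 libraries, and the difference was made up largely of type VI, type IV and COL13A1. Members took 0.562% of the counts in the PC3 circ0003553 library and 0.6% in the PC3 control library, against 0.0993% and 0.0887% in the DU145 circ0003553 and control libraries. Their RPKM values, which scale counts to exon length and library total, summed to 759 and 786 in PC3 and to 148 and 131 in DU145. In these bulk libraries, fewer cells with an RNA and less of it per cell cannot be told apart. Of the 48 members, 21 and 22 reached 1 RPKM in the PC3 circ0003553 and control libraries and 14 did so in each DU145 library. Members listed at 0 counts numbered 5 and 4 in the PC3 libraries and 4 and 8 in the DU145 libraries, and 3 counts were taken as the floor for a count of 0.

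**Figure D1:**
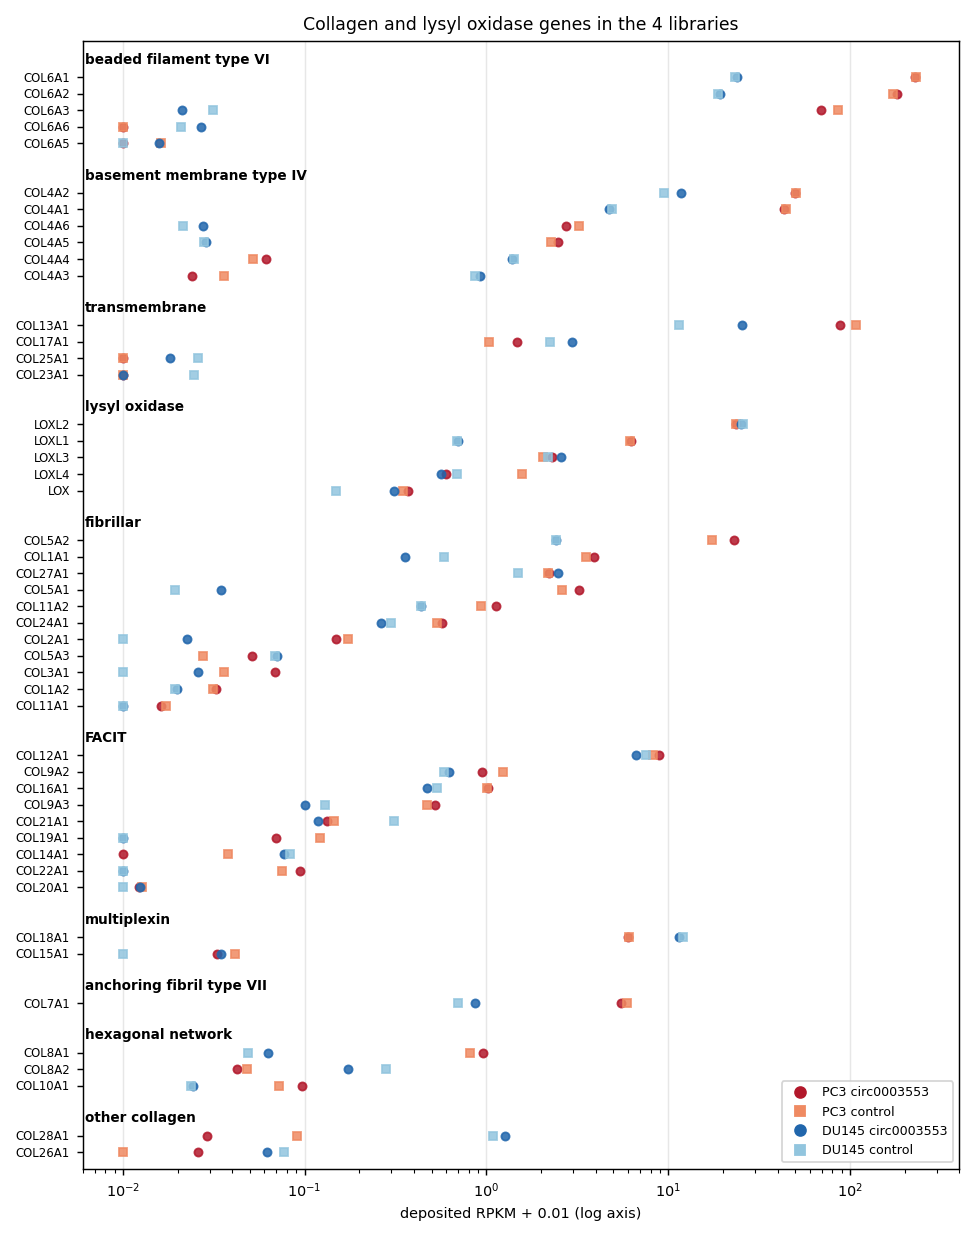
Deposited RPKM of all 48 members plus 0.01 (log axis), grouped by collagen class and by lysyl oxidase; each symbol is 1 library. COL6A1 and COL6A2 stand highest, at 173 to 232 RPKM in PC3, while LOXL2 lies at 23.6 to 25.7 RPKM in all 4 libraries.

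Both lines were fitted together by an additive model of line and plasmid, with 2 libraries per line and 1 residual degree of freedom. Most of the information behind the standard errors (SE) and p-values thus came from other genes, and they measure only the spread between these libraries. Of the 48 members 37 passed the filter on low counts. At an adjusted p of 0.05, 24 of the 37 were higher in PC3, 7 were lower and 6 were not called (edgeR's quasi-likelihood test, Benjamini-Hochberg adjustment over 21731 genes). The same test called 66.0% of all genes tested, 33.1% higher and 32.9% lower in PC3. Most genes thus differed between these lines, and a call by itself says little about a member. The median fitted log2 fold change of the 37 was 1.33, beside 0.00 over all genes tested. That filter favours differences, since 8 of the 37 reached its minimum of 0.268 CPM in 1 line alone. These were COL2A1, COL4A5, COL4A6, COL19A1 and COL22A1 through PC3 and COL4A3, COL8A2 and COL14A1 through DU145. Their calls were in part fixed by the filter, so their p-values are no independent support. A line counted as reaching the minimum if either of its libraries did. Among the 29 that reached the minimum in both lines, 19 were higher and 4 lower in PC3, beside 31.8% and 30.7% of all genes so restricted. Among those 29, COL6A3 and COL5A1 reached it in only 1 DU145 library, and COL28A1 and COL5A3 in only 1 PC3 library. They passed the filter through the other line, so this restriction does not free their p-values from the filter. The 11 members that were not tested were COL1A2, COL3A1, COL6A5, COL6A6, COL10A1, COL11A1, COL15A1, COL20A1, COL23A1, COL25A1 and COL26A1, whose counts ran from 0 to 16.

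**Figure D2:**
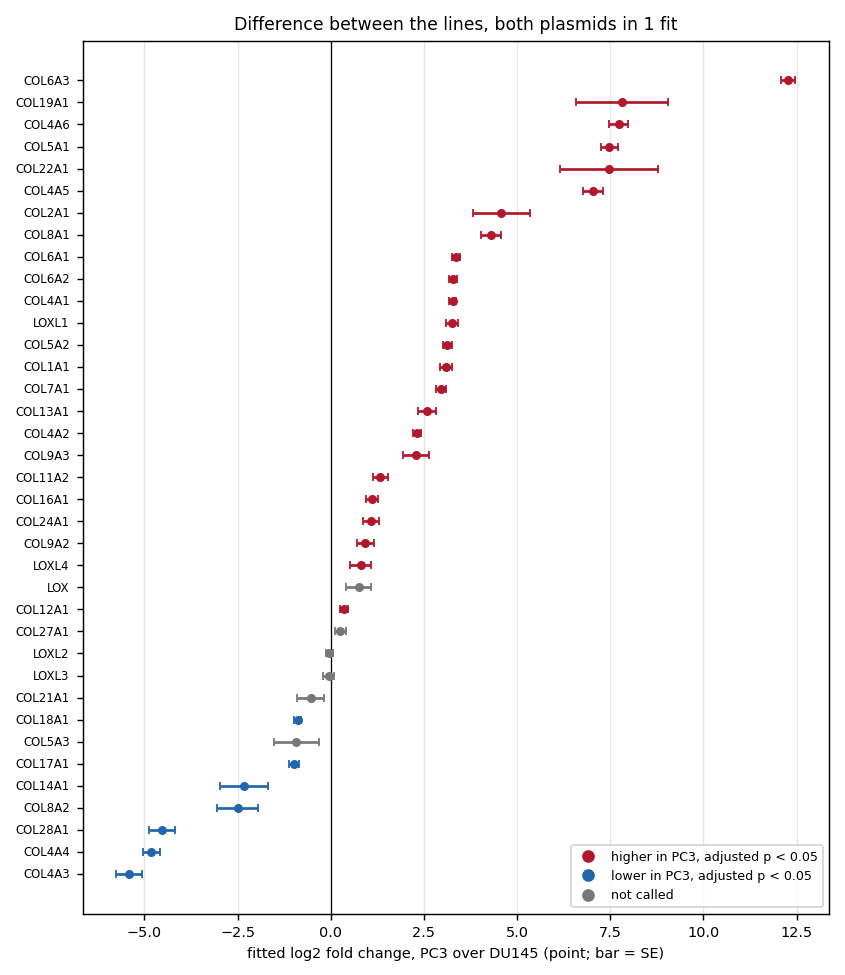
Fitted log2 fold change of PC3 over DU145 with its SE for the 37 members tested (positive means higher in PC3; colour marks the call at an adjusted p of 0.05). COL6A3 lies farthest to the right at 12.28, and COL4A3, COL4A4 and COL28A1 farthest to the left.

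Type VI collagen forms beaded microfibrils around cells, from chains encoded by COL6A1, COL6A2 and COL6A3. COL6A1 (chromosome 21, 45981737 to 46005050 on hg38, plus strand) had 48167 and 41500 counts in the PC3 circ0003553 and control libraries, against 4640 and 4724 in the DU145 circ0003553 and control libraries. Its neighbour COL6A2 (chromosome 21, 46098097 to 46132849, plus strand) had 38618 and 31109 counts in PC3 and 3765 and 3878 in DU145. Both were thus near 10-fold higher in PC3, with little spread between the plasmids. The fitted log2 fold changes of PC3 over DU145 were 3.36 ± 0.11 for COL6A1 (SE, n = 2 libraries per line; adjusted p = 2.26e-12) and 3.29 ± 0.11 for COL6A2 (adjusted p = 2.04e-12), both from edgeR's quasi-likelihood test. COL6A3, on another chromosome (2, 237324003 to 237414375, minus strand), encodes the longest of these chains. It had 53610 and 56510 counts in PC3, against 8 and 16 counts in DU145. The log2 fold change was 12.28 ± 0.19 (adjusted p = 5.65e-15), the largest among the members. COL6A3 passed the filter on low counts through PC3 and reached its minimum in only 1 DU145 library, which limits this p-value. With circ0003553 plasmid the ratio of PC3 to DU145 was 6350 (95% counting interval 3220 to 14700) and with control plasmid 4320 (2660 to 7560). The widest of these intervals became 2480 to 23300 when each read pair was taken as 1 count. In length-corrected terms, the level of COL6A1 was 3.3 and 2.7 times that of COL6A3 in the PC3 circ0003553 and control libraries, and 2130 and 1080 times in DU145. The level ratio of COL6A1 to COL6A2 lay between 1.23 and 1.34 in all 4 libraries. DU145 thus held RNA of the first pair of chains at 18.9 to 23.8 RPKM with COL6A3 at 0.0112 and 0.0214 RPKM. The alternative chains COL6A5 and COL6A6 had at most 2 and 6 counts in any library.

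Genes beside COL6A3 were looked up after its values were seen. The nearest gene on its left with at least 200 counts over the 4 libraries, COPS8 at 223.5 kb, had 964 and 809 counts in PC3 and 401 and 474 in DU145. The nearest on its right, the noncoding gene AC112721.1 at 7 kb, had 186 and 116 counts in PC3 and 0 in both DU145 libraries. AC112721.1 was thus detected in PC3 alone, whereas COPS8 was detected in every library.

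Type IV collagen forms the network of basement membranes. Its 6 genes lie in 3 head-to-head pairs, each pair read outward from a short stretch of DNA, and the pairs took 3 different patterns. COL4A1 and COL4A2 (chromosome 13), whose chains form the common trimer of basement membranes, were abundant in both lines and higher in PC3. COL4A5 and COL4A6 (chromosome X), whose chains occur together in skin and smooth muscle, were near the floor in DU145. COL4A3 and COL4A4 (chromosome 2), whose chains join that of COL4A5 in the kidney glomerulus, were near the floor in PC3.

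COL4A1 (110148963 to 110307149, minus strand) had 13969 and 12248 counts in the PC3 circ0003553 and control libraries, against 1403 and 1527 in the DU145 circ0003553 and control libraries. COL4A2 (110305812 to 110513027, plus strand) had 17058 and 14684 counts in PC3 and 3742 and 3147 in DU145. COL4A1 was 9.62-fold and COL4A2 4.96-fold higher in PC3, log2 fold changes of 3.27 ± 0.10 (adjusted p = 1.71e-12) and 2.31 ± 0.11 (2.13e-10, edgeR's quasi-likelihood test). The level of COL4A1 per length was 0.871 and 0.887 of that of COL4A2 in the PC3 circ0003553 and control libraries, and 0.399 and 0.516 in DU145. The balance of this pair thus differed between the lines, whereas that of COL6A1 and COL6A2 did so by less. Neither difference in balance was tested.

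COL4A5 (108439844 to 108697545, plus strand) had 851 and 659 counts in PC3 and 6 in each DU145 library. COL4A6 (108155607 to 108439497, minus strand) had 999 and 1007 counts in PC3 and 6 and 4 in DU145. Their log2 fold changes were 7.04 ± 0.27 (adjusted p = 1.04e-11) and 7.73 ± 0.25 (2.28e-12). Both genes passed the filter on low counts through PC3 alone, so these p-values are no independent support. The other pair ran the opposite way. COL4A3 (227164565 to 227314792, plus strand) had 5 and 8 counts in PC3, against 305 and 297 in DU145. COL4A4 (227002711 to 227164113, minus strand) had 20 and 14 counts in PC3 and 496 and 530 in DU145. COL4A3 was 42.5-fold and COL4A4 28-fold lower in PC3, log2 fold changes of -5.41 ± 0.34 (adjusted p = 2.86e-09) and -4.81 ± 0.24 (2.37e-10), all by edgeR's quasi-likelihood test. COL4A3 passed the filter through DU145 alone, which limits its p-value likewise. DU145 thus held RNA of COL4A3 and COL4A4 with hardly any of COL4A5, the gene of the chain they are known to assemble with, and PC3 the reverse. Values of 4 to 20 counts carry wide counting error: COL4A3 was 64.3-fold lower in PC3 between the circ0003553 libraries and 30.4-fold lower between the control libraries, and COL4A6 was 158-fold higher between the circ0003553 libraries and 308-fold higher between the control libraries.

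Expressed genes flanked both pairs in both lines. ATG4A, 0.9 kb from the COL4A5 and COL4A6 pair, had 260 and 192 counts in PC3 and 186 and 179 in DU145. RHBDD1, 3.5 kb from the COL4A3 and COL4A4 pair, had 291 and 239 counts in PC3 and 260 and 240 in DU145. On its other side MFF, at 10.4 kb, had 1187 and 983 counts in PC3 and 2319 and 4148 in DU145.

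The promoter windows of these pairs are shown because both genes of a pair differed in the same direction between the lines, with COL6A3 as the member that differed most. They are RefSeq sequences (GRCh38.p14) of 300 bases, 250 of them before the annotated start, on the gene's own strand, 5′ to 3′. Capitals mark matches to the CCAAT box (CCAAT), the GC box (GGGCGG) and the TATA box (TATAAA), read on both strands; overlapping matches were allowed and none of the 3 motifs contains another. The COL4A2 window at chr13:110307034-110307333 (plus strand) shares 226 bases with that of COL4A1, so it stands for both.
COL4A2: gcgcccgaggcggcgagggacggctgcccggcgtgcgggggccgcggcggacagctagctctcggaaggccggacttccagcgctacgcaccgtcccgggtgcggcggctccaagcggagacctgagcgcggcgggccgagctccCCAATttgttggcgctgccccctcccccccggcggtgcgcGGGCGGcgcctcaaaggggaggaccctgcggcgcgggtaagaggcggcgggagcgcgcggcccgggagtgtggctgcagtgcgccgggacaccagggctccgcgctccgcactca
COL4A3, chr2:227164374-227164673, plus strand: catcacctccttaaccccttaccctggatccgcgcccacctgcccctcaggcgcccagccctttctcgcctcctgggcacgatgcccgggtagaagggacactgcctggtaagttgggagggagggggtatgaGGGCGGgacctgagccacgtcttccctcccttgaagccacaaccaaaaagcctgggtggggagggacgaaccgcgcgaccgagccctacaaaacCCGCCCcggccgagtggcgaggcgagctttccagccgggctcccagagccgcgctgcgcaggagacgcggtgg
COL4A4, chr2:227164156-227164455, minus strand: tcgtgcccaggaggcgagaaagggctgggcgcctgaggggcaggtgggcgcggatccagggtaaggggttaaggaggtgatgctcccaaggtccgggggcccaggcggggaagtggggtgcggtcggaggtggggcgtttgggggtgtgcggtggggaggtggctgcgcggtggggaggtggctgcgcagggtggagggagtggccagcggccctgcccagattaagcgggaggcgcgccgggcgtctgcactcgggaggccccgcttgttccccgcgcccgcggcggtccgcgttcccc
COL4A5, chrX:108439588-108439887, plus strand: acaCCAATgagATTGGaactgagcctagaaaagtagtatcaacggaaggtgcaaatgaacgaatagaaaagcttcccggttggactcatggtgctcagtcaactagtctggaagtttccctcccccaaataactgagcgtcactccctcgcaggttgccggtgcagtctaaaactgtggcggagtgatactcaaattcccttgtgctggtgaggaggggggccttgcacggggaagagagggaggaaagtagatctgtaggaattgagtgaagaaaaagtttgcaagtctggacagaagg
COL4A6, chrX:108439409-108439708, minus strand: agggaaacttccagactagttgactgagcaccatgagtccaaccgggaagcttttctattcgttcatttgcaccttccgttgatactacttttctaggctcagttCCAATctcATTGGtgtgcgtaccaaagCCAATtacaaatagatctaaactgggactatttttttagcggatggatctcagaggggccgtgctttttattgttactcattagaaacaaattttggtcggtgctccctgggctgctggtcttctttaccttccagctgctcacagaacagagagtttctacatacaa
COL6A3, chr2:237414115-237414414, minus strand: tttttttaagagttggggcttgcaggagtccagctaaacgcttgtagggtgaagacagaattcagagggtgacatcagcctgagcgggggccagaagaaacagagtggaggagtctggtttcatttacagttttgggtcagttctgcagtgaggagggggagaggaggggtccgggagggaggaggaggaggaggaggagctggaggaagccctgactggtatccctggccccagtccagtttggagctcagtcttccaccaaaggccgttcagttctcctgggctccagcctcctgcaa
The annotated starts were 127 bases apart for COL4A1 and COL4A2, 419 for COL4A3 and COL4A4 and 380 for COL4A5 and COL4A6. The CpG dinucleotide occurred 45 times in the COL4A2 window, 24 in COL4A3 and 29 in COL4A4, but 8 and 7 times in COL4A5 and COL4A6 and 4 times in COL6A3, beside a median of 14 over all 35116 windows of the reference table. CpG-rich and CpG-poor windows thus both occurred among the members near the floor in 1 line. A CCAAT match was present in the COL4A2, COL4A5 and COL4A6 windows and in 34.6% of all windows, and a GGGCGG match in the COL4A2 and COL4A3 windows and in 45% of all. The COL4A5 and COL4A6 windows share 121 bases, and the COL4A5 matches lie in them, so the same sites count for both genes. Another COL4A6 window, from a start at 108438422 farther from COL4A5, is not shown. It had a GGGCGG match and no CCAAT match. None of the 3 motifs was found in the COL4A4 and COL6A3 windows, and no TATAAA in any of the 6 (11.5% of all windows). Windows were found for 35 of the 48 members.

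**Figure D3:**
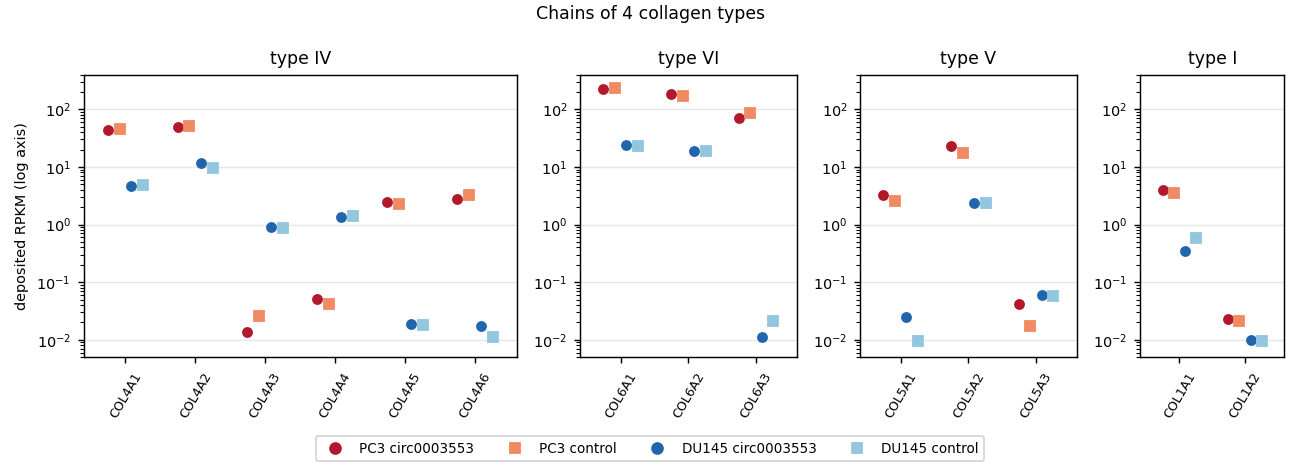
Deposited RPKM (log axis) of the chains of type IV, VI, V and I collagen; each symbol is 1 library. COL6A3, COL5A1, COL4A5 and COL4A6 are at most at 0.0245 RPKM in DU145, COL4A3 and COL4A4 at most at 0.0512 RPKM in PC3, and COL1A2 at most at 0.0227 RPKM in all 4 libraries.

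Fibrillar collagens were low beside type VI in both lines, and COL1A2, COL3A1 and COL2A1 were near the floor in DU145. Their 11 genes summed to 34.4 and 27.4 RPKM in the PC3 circ0003553 and control libraries and to 6.01 and 5.26 RPKM in the DU145 circ0003553 and control libraries. Of the 8 tested, 6 were higher in PC3, none was lower, and COL27A1 and COL5A3 were not called, beside 33.1% higher and 32.9% lower over all genes tested. Among those higher, COL2A1 passed the filter on low counts through PC3 alone.

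COL5A2, a chain of the type V collagen that starts fibrils, had the highest level of this class in PC3, with 6515 and 4175 counts there and 626 and 656 in DU145 (log2 fold change 3.13 ± 0.12, edgeR's quasi-likelihood test, adjusted p = 9.47e-12). Its partner chain COL5A1 had 1422 and 967 counts in PC3, against 10 and 4 in DU145 (7.47 ± 0.23, adjusted p = 1.3e-12), and the ratio of PC3 to DU145 was 135 between the circ0003553 libraries and 296 between the control libraries. COL5A1 passed the filter on low counts through PC3 and reached its minimum in only 1 DU145 library, which limits its p-value. In PC3 the level of COL5A2 per length was 7.16 and 6.75 times that of COL5A1, with circ0003553 and control plasmid. In DU145 COL5A2 stood at 2.4 and 2.41 RPKM with COL5A1 at 0.0245 and 0.0094 RPKM. COL3A1, the type III chain gene that lies next to COL5A2 on chromosome 2 in tail-to-tail order, had 16 and 6 counts in PC3 and 4 and 0 in DU145. The step between neighbours was thus large in both lines.

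Type I collagen, the main protein of bone, skin and tendon, is usually built from the chains of COL1A1 and COL1A2. COL1A1 had 1519 and 1153 counts in PC3 and 124 and 216 in DU145, and was 8.53-fold higher in PC3 (3.09 ± 0.17, adjusted p = 8.27e-10, edgeR's quasi-likelihood test), 11.6-fold with circ0003553 plasmid and 6.53-fold with control plasmid. COL1A2 had 10 and 8 counts in PC3 and 4 in each DU145 library. COL1A1 RNA was thus present in PC3 at 3.92 and 3.51 RPKM with almost no COL1A2, at 0.0227 and 0.0214 RPKM. COL5A3, the remaining type V gene, had 4 to 15 counts in every library. The minor fibrillar genes COL11A2 (299 and 207 counts in PC3, 105 and 109 in DU145) and COL24A1 (212 and 169 in PC3, 88 and 105 in DU145) were 2.51-fold and 2.12-fold higher in PC3 (adjusted p = 2.91e-05 and 0.000372). COL27A1, a cartilage collagen, had 1220 and 1022 counts in PC3 and 1257 and 790 in DU145 and was not called (0.26 ± 0.15, adjusted p = 0.141). COL2A1, the main cartilage collagen, had 36 counts in each PC3 library and 3 and 0 in DU145.

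Transmembrane collagens stay anchored in the plasma membrane. COL13A1 (chromosome 10, 69801931 to 69964275, plus strand), found at cell junctions and adhesion sites, was the third most abundant member in PC3 by RPKM. It had 20148 and 20732 counts in the PC3 circ0003553 and control libraries, against 5335 and 2517 in the DU145 circ0003553 and control libraries. The fitted difference was 5.98-fold (log2 2.58 ± 0.24, adjusted p = 1.79e-07, edgeR's quasi-likelihood test), but it was 3.58-fold between the circ0003553 libraries and 10.1-fold between the control libraries. COL17A1, the hemidesmosome collagen that ties basal epithelial cells to the basement membrane, ran the other way, with 376 and 224 counts in PC3 and 698 and 552 in DU145 (-0.99 ± 0.14, adjusted p = 1.75e-05). COL23A1 and COL25A1 had at most 4 counts in any library.

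Other classes were mixed. COL7A1, which builds the anchoring fibrils below basement membranes, had 2421 and 2206 counts in PC3 and 349 and 292 in DU145, and was 7.77-fold higher in PC3 (adjusted p = 8.65e-11, edgeR's quasi-likelihood test). COL8A1, a network collagen of vessel walls, had 350 and 253 counts in PC3 and 18 and 14 in DU145 (19.9-fold higher, adjusted p = 3.06e-09). Its partner COL8A2 was lower in PC3, with 6 counts in each PC3 library and 28 and 48 in DU145. COL18A1, the basement membrane collagen whose tail is released as endostatin, had 2018 and 1734 counts in PC3 and 3587 and 3879 in DU145 (1.85-fold lower in PC3, adjusted p = 1.52e-06). It shares 1401 of 8525 exon bases with SLC19A1 on the other strand, which had 1093 and 951 counts in PC3 and 1909 and 2100 in DU145, and reads of the pair may not have been separated. COL28A1 had 5 and 18 counts in PC3, against 305 and 272 in DU145, and was 23.1-fold lower in PC3 (adjusted p = 4.07e-08), 64.3-fold between the circ0003553 libraries and 12.4-fold between the control libraries. COL28A1 passed the filter on low counts through DU145 and reached its minimum in only 1 PC3 library, which limits its p-value.

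The FACIT class of 9 genes was led by COL12A1, which had 4363 and 3445 counts in PC3 and 3024 and 3566 in DU145. It differed little between the lines (1.27-fold higher in PC3, log2 0.35 ± 0.10, adjusted p = 0.00692, edgeR's quasi-likelihood test). COL9A2, a cartilage FACIT chain, had 154 and 171 counts in PC3 and 93 and 91 in DU145 (1.9-fold higher, adjusted p = 0.00235), a call lost with DESeq2 (adjusted p = 0.0995). COL16A1 (371 and 310 counts in PC3, 155 and 184 in DU145) and COL9A3 (98 and 75 in PC3, 16 and 22 in DU145) were 2.16-fold and 4.85-fold higher in PC3. COL19A1 had 20 and 32 counts in PC3 and 0 in both DU145 libraries. Against the floor of 3 counts per library it was at least 6.32-fold higher with circ0003553 plasmid and at least 13-fold higher with control plasmid. COL22A1, with 26 and 17 counts in PC3 and 0 in both DU145 libraries, was at least 8.22-fold higher with circ0003553 plasmid and at least 6.93-fold higher with control plasmid. COL14A1 was lower in PC3, at 0 and 8 counts, against 21 and 24 in DU145 (adjusted p = 0.00574), a call lost with DESeq2 (adjusted p = 0.134) and without a filter on low counts (0.0762). COL14A1 had passed the filter through DU145 alone, and COL19A1 and COL22A1 through PC3 alone. COL21A1 was not called.

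Among the lysyl oxidases LOXL1 differed most between the lines. Of the 5 genes 2 were higher in PC3, none was lower and 3 were not called, a smaller share of calls than the 66.0% over all genes tested (33.1% higher, 32.9% lower). LOXL2, which crosslinks basement membrane collagen, was by far the most abundant, with 5348 and 4497 counts in the PC3 circ0003553 and control libraries and 5274 and 5590 in the DU145 circ0003553 and control libraries. Its levels were 23.7, 23.6, 25.3 and 25.7 RPKM in the same libraries, and its log2 fold change was -0.04 ± 0.09 (adjusted p = 0.727, edgeR's quasi-likelihood test). LOXL1, known for elastic fibre assembly, had 894 and 747 counts in PC3, against 91 and 94 in DU145 (9.5-fold higher in PC3, log2 3.25 ± 0.16, adjusted p = 1.85e-10). That gap was close in size to those of COL6A1, COL6A2 and COL4A1. LOXL1 shares 335 of 3637 exon bases with LOXL1-AS1 on the other strand, whose counts were 1485 and 1295 in PC3 and 197 and 221 in DU145, and here too reads of both may be mixed. LOXL3 had 396 and 296 counts in PC3 and 409 and 361 in DU145 (-0.06 ± 0.15, adjusted p = 0.728), and shares exon bases with HTRA2 and DOK1 on the other strand. LOX, the founding member of the family, had 78 and 62 counts in PC3 and 60 and 29 in DU145 (0.75 ± 0.33, adjusted p = 0.0582). The scaled levels of LOXL3 overlapped between the lines, while those of LOX did not. LOXL4 had 85 and 189 counts in PC3 and 74 and 94 in DU145. It was called higher in PC3 (0.80 ± 0.28, adjusted p = 0.0187), but the log2 ratio was 0.12 between the circ0003553 libraries and 1.28 between the control libraries, and it was not called by DESeq2 (adjusted p = 0.329), without a filter on low counts (0.0693) or without the plasmid term (0.107).

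Genes that process, bind or degrade collagen, together with 10 genes of TGF-beta signalling, were taken from a list of 67. Of these 65 were in the table and 59 were tested, among them all 10 of TGF-beta signalling. In PC3 26 were higher, 19 were lower and 14 were not called, a share of 76.3% called beside 66.0% over all genes tested (33.1% higher, 32.9% lower). Among the genes of propeptide removal and fibril assembly, 8 of 12 tested were higher in PC3 and 2 were lower. Fibronectin (FN1), on which collagen fibrils are laid down, had 13411 and 12055 counts in PC3 and 487 and 599 in DU145 (log2 4.66, edgeR's quasi-likelihood test, adjusted p = 1.35e-13). ADAMTS3, a procollagen N-proteinase, had 1010 and 826 counts in PC3 and 12 and 17 in DU145 (6.07, adjusted p = 4.98e-12), and the collagen chaperone FKBP10 3177 and 2779 in PC3 and 555 and 517 in DU145 (2.58, adjusted p = 7.4e-11). Proline hydroxylation, which stabilises the triple helix, had 6 of 10 genes higher and 1 lower. Lower in PC3 were the collagenase MMP1 (68 and 48 counts, against 784 and 166 in DU145), the lysyl hydroxylase PLOD2 (2026 and 1659, against 5390 and 8231) and the collagen receptor kinase DDR1 (1008 and 925, against 2052 and 2023). Folding and export genes were split, with 3 of 7 higher and 4 lower, and collagen receptors had 4 of 9 higher and 2 lower. Lysine hydroxylation and glycosylation had 1 of 5 higher and 3 lower, and TGF-beta signalling 2 of 10 higher and 5 lower. Collagen degradation had 2 of 6 higher and 2 lower.

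The plasmids were compared next, to ask whether the circ0003553 plasmid changed collagen or lysyl oxidase RNA in these lines. No member was called across the lines (0 of 37, edgeR's quasi-likelihood test; lowest adjusted p = 0.278), beside 0.465% of all genes tested (0.396% higher and 0.0690% lower with circ0003553 plasmid), and DESeq2 and limma-voom called 0 as well. At an unadjusted p under 0.05 there were 5 of the 37, beside 8.88% of all genes. The median fitted log2 fold change of circ0003553 over control was 0.01, with 22 members above 0 and 15 below, beside 0.00303 over all genes. Changes in single members may still be present, since the SE was 0.09 to 0.63 on the log2 scale and the 2 lines are the only replicates.

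For several abundant members the change fitted across the lines was at most 0.05 in size on the log2 scale. For LOXL2 the fit gave 0.00 ± 0.09 (edgeR's quasi-likelihood test, adjusted p = 0.998), beside ratios of 0.99 in PC3 (95% counting interval 0.952 to 1.03) and 1.01 in DU145 (0.976 to 1.05). COL6A1 stood at 0.01 ± 0.10, COL6A2 at 0.05 ± 0.10, COL4A1 at -0.05 ± 0.10, LOXL1 at 0.01 ± 0.15, COL18A1 at -0.03 ± 0.10 and COL12A1 at -0.03 ± 0.10. Some of these fits joined ratios on both sides of 1. COL12A1 had a ratio of 1.05 in PC3 (1.01 to 1.1) and 0.911 in DU145 (0.867 to 0.956). For COL6A1 the ratio was 0.966 in PC3 (0.954 to 0.979) and 1.05 in DU145 (1.01 to 1.1). Changes within these errors could not be detected.

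The 5 members with the lowest p did not pass the test and are given as values. COL17A1 had like ratios in both lines, with 376 counts against 224 with control plasmid in PC3 and 698 against 552 in DU145. Its ratios were 1.4 in PC3 (95% counting interval 1.18 to 1.66) and 1.36 in DU145 (1.21 to 1.52), and the fit gave 0.46 ± 0.14 on the log2 scale (edgeR's quasi-likelihood test, adjusted p = 0.278). LOXL4 had 85 counts against 189 with control plasmid in PC3, a ratio of 0.375 (0.286 to 0.486), and 74 against 94 in DU145, a ratio of 0.846 (0.615 to 1.16). Its fitted value was -0.91 ± 0.28 (adjusted p = 0.29). An antisense neighbour that shares 152 of its 3653 exon bases, RP11-34A14.3, had 34 counts against 79 with control plasmid in PC3 and 9 against 20 in DU145, and its part in the result was not tested. COL6A3 had a ratio of 0.79 in PC3 (0.781 to 0.799), and its 8 and 16 counts in DU145 add almost nothing (-0.37 ± 0.14, adjusted p = 0.444). COL27A1 had a ratio of 0.994 in PC3 (0.914 to 1.08) and 1.71 in DU145 (1.56 to 1.87), and COL21A1, with 34 counts against 32 in PC3 and 28 against 81 in DU145, ratios of 0.885 (0.53 to 1.48) and 0.371 (0.233 to 0.577); neither passed (adjusted p = 0.473 and 0.506). In each of LOXL4, COL27A1 and COL21A1 the gap was thus mainly in 1 line.

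Within a line there is 1 library per plasmid, so no test was possible and the intervals cover counting error only. In PC3, 1 of 30 members with at least 50 counts was at least 2-fold apart (3.33%, beside 1.16% of all genes, 0.824% higher and 0.334% lower), and this was LOXL4, lower with circ0003553 plasmid. In DU145, 3 of 26 were at least 2-fold apart (11.5%, beside 2.02% of all genes, 1.03% higher and 0.992% lower). These were COL13A1 and LOX, higher with circ0003553 plasmid, and COL21A1, lower. COL13A1 had in DU145 5335 counts against 2517 with control plasmid, a ratio of 2.28 (2.17 to 2.39), while PC3 had 20148 against 20732, a ratio of 0.809 (0.794 to 0.825). Its fitted log2 fold change across the lines was 0.43 ± 0.22 (adjusted p = 0.642, edgeR's quasi-likelihood test). LOX had 60 counts against 29 in DU145, a ratio of 2.22 (1.4 to 3.59), or 1.12 to 4.3 when each read pair was taken as 1 count. In PC3 the ratio of LOX was 1.05 (0.741 to 1.49). The median log2 ratio of the members was -0.00677 in PC3 and 0.0516 in DU145, beside 0.000555 and 0.00578 over all genes with as many counts.

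**Figure D4:**
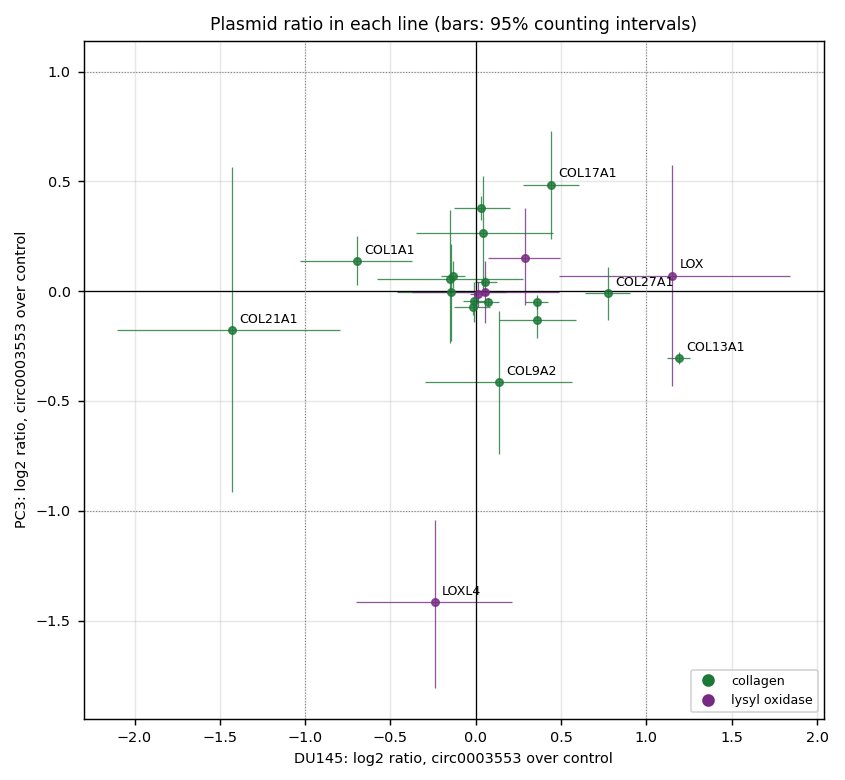
Log2 ratio of circ0003553 over control in DU145 (horizontal) and in PC3 (vertical) for the 22 members with at least 50 counts in each line; bars are 95% counting intervals and dotted lines mark 2-fold. Most members lie near the centre, COL13A1, LOX and COL21A1 pass 2-fold in DU145, and LOXL4 does so in PC3.

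Several ratios under 2-fold stood apart from 1 by more than counting error. In PC3 COL5A2 had 6515 counts against 4175 with control plasmid, a ratio of 1.3 (1.25 to 1.35), and COL5A1 1422 against 967, a ratio of 1.22 (1.13 to 1.33). The type V genes were thus both above 1 there, whereas COL9A2 was at 0.75 (0.599 to 0.938, or 0.541 to 1.03 with each read pair as 1 count) and the interval of COL11A2 reached 1 (ratio 1.2, 1 to 1.44, or 0.929 to 1.56 with each pair as 1 count). In DU145 COL1A1 had 124 counts against 216, a ratio of 0.617 (0.49 to 0.772), while in PC3 it stood at 1.1 (1.02 to 1.19, or 0.983 to 1.22 with each pair as 1 count). The interval of COL24A1 in DU145 held 1 (ratio 0.9, 0.67 to 1.21). With 1 library per plasmid in a line, the spread between cultures is unknown, so none of these can be told from variation between samples.

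Of the listed collagen-related and TGF-beta signalling genes outside the family, 2 of 59 were called across the lines, both higher with circ0003553 plasmid. Of all genes tested 0.465% were called (0.396% higher and 0.0690% lower). The collagen receptor subunit ITGA2 had 4059 counts against 2205 in PC3 and 1391 against 834 in DU145 (log2 fold change 0.72, adjusted p = 0.00387, edgeR's quasi-likelihood test). MMP1 had 68 counts against 48 in PC3 and 784 against 166 in DU145 (1.79, adjusted p = 0.0174). In RPKM MMP1 stood at 0.874 against 0.729 in PC3 and at 10.9 against 2.21 in DU145, so its gap was mainly in DU145. The ITGA2 call was lost with limma-voom (adjusted p = 0.0958), without a filter (0.296) and without the line term (1), and that of MMP1 also with DESeq2 (1) and legacy dispersions (0.159); limma-voom gave 0.224 and no filter 0.616 for MMP1.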

How the data were processed

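For 4 libraries the authors deposited gene counts, in whole numbers, and the RPKM of those genes. The deposited RPKM equalled the count divided by exon length and by the library total, within a relative difference of 1e-09. Tools in the submitters' processing notes are edgeR 3.12.1, Subread 1.5.1, featureCounts and Trimmomatic 0.36, and the build there is hg38. The sources used here do not give the aligner, the strand setting or the use made of the 8-base molecular identifiers. Columns named NC were taken as negative control and those named RCAN3 as overexpression plasmid.

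Of counts from 1 to 20, 70.3% to 75.3% were even in each library, so a read pair appears often to have been counted as 2. Exact conditional binomial (Clopper-Pearson) 95% intervals are then too narrow and the floor of 3 counts (0.076 to 0.0897 CPM) too low; both cover counting error only.

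An additive model of line and plasmid was fitted to the counts, after TMM scaling and low-count filtering by plasmid, with the quasi-likelihood test of edgeR 4.0.16 in R 4.3.3. The procedure was also run on counts drawn from its own fitted means and dispersions, with the same plasmid changes in both lines. That run gives no error rates for the real data. Each SE was taken from the log2 fold change and its F statistic. A prior of 13.4 degrees of freedom was added to 1 residual. The pairing of libraries by line comes from the labels. An interaction would leave no residual degrees of freedom. Ratios within a line used TMM-scaled CPM; on the log2 scale 2 counts were added as a prior.

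DESeq2 1.42.0, limma-voom (limma 3.58.1), other scalings, no filter, legacy dispersions, halved counts and fits without the second term were alternatives. The members and lists were chosen with earlier results of these data known. Values in every library are given for the 5 members with the lowest plasmid p, the 12 highest by mean RPKM, the 8 highest and up to 8 lowest called line differences with mean log2 CPM of at least 0, the 4 highest and 4 lowest plasmid ratios in each line at 100 counts or more, every lysyl oxidase, and partner chains. COL14A1, COL19A1, COL22A1, COL2A1 and COL8A2 were added after their values were seen. The results of some marker genes are not reported here.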

Additional observations from a re-analysis of the deposited data

Results flagged for a closer look

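The ratio of circ0003553 over control ran in opposite directions in the lines, beyond counting error from halved counts, for 3 of the 20 members with at least 100 counts in each line (15%), beside 3.86% of all 14108 genes with as many counts. COL13A1 had a ratio of 0.809 in PC3 and 2.28 in DU145, COL4A2 of 0.967 in PC3 and 1.28 in DU145, and COL7A1 of 0.914 in PC3 and 1.28 in DU145. For COL4A2 and COL7A1 the halved-count intervals in PC3 ended close to 1, at 0.998 and 0.993. Those intervals rest on TMM scaling, and the rule was not run under other scalings, so these flags may depend on it. The difference between the lines was not tested, since it would leave no residual degrees of freedom.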

How the results depend on the processing

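No member was called in the plasmid comparison under any of the 8 other settings, which were RLE scaling, total counts, no filter, DESeq2, limma-voom, legacy dispersions, halved counts and no replicate block. Over all genes the plasmid comparison called 101, against 9 without a filter, 26 with limma-voom, 53 with legacy dispersions, 63 with DESeq2 and 0 without the cell line as a replicate block (26 at an unadjusted p under 0.05); the cause was not tested. The line comparison called 22 to 24 members higher and 6 or 7 lower in PC3 under these settings, 19 and 5 among members free of exon overlap, and 19 and 4 among genes above the count minimum in both lines, an alternative chosen after seeing the data that counts fewer genes. There a line counted if either of its libraries reached the minimum. Line calls of COL9A2 (DESeq2) and LOXL4 were the ones lost among 29 named members, and COL14A1, named beside them, lost its call with DESeq2 and without a filter.

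Plasmid values of uncalled members changed sign without the block for COL13A1 (-0.09), COL1A1 (0.05), COL6A1 (-0.04) and COL7A1 (-0.07), with DESeq2 for COL28A1 (-0.69), COL4A3 (-0.19) and LOXL2 (-0.000894), with legacy dispersions for COL28A1 (-0.10), with total counts for COL4A4 (-0.00221) and LOXL2 (-0.00625), and with RLE scaling for LOXL2 (-0.000898). The median log2 ratio of members in PC3 was 0.0173 under total counts, against -0.00677 under TMM scaling. Members 2-fold apart numbered 1 in DU145 at a minimum of 200 counts and 2 in PC3 at 20. Leaving out a line or a plasmid leaves 1 library per arm and no test. For the 29 named members, 30 of these single-pair line values and 26 of the plasmid values differed from the fitted value by more than its SE, while 28 line values and 32 plasmid values did not. Single-pair values hold the prior of 2 counts, which shrinks ratios of low counts, so part of these differences may come from the prior. COL4A5 had a ratio of 134 in both line pairs, yet single-pair log2 values of 6.66 and 6.63 beside a fitted 7.04 ± 0.27.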
